A study of Mus musculus with 4 samples.

Results

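Collagens are the main structural proteins of the extracellular matrix. Each collagen molecule is a rope of α chains wound around one another, and every α chain has its own gene. The 44 genes described here are all rows, of 51912 in the deposited gene table, whose symbol has the form Col, a type number, the letter a and a chain number. They were grouped by type into fibrillar chains (types 1, 2, 3, 5 and 11, 9 genes), basement membrane chains (type 4, 6 genes) and the chains of the other types (29 genes). Fibrillar collagens form the striated cables of connective tissue and are made mostly by fibroblasts and related mesenchymal cells. Type 4 collagen forms the sheet-like network of basement membranes, which in the islet line the capillaries and touch the β cells. The other types coat fibrils, form beaded filaments around cells, or span the cell membrane.

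RNA was sequenced from pancreatic β cells of neonatal mice at day 13 in 4 libraries. Both genotypes carried 1 copy of Ucn3-Cre, a Cre recombinase driven from a gene of maturing β cells, and 1 copy of Rosa26-lsl-H2B-mCherry, a nuclear reporter that Cre switches on and on which the cells were sorted. The 2 control libraries are labelled Robo1+/+; Robo2+/+, and the 2 Robo mutant libraries Robo1delta/delta; Robo2flx/flx, so that loss of Robo2 depends on the Cre, while the label for Robo1 names a deletion with no flanked allele. Robo1 and Robo2 encode receptors for Slit proteins, and the series asks, by its title, what these receptors in β cells contribute to the arrangement of islet cell types. The labels do not say whether libraries came from separate animals or pools, and p-values then reflect the variation among these 4 libraries alone, some of which may be technical.

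Totals ran from 38886129 to 49593712 counts. Levels are given as CPM, counts scaled to a common library total after TMM, a factor that corrects for library composition. The 9 β-cell markers summed to between 159135 and 230191 CPM, and 0 of them were at 0 in any library. Robo1 stood at 48.5 and 104 CPM in control 1 and control 2 and at 22.3 and 21 CPM in mutant 1 and mutant 2. Robo2 stood at 75.3 and 118 CPM in the controls and at 32.7 and 25.6 CPM in the mutants, below both controls for each gene. The log2 changes were -1.82 and -1.73, each with an adjusted p of 0.680 in edgeR, while in DESeq2 the adjusted p was 0.00186 for Robo1 and 1.99e-05 for Robo2. Acinar markers took 5259, 771, 3237 and 51706 CPM in the order control 1, control 2, mutant 1, mutant 2, which is kept below. Mutant 2 therefore stood apart from the other libraries, and each collagen result below is given by library. In a bulk library, fewer cells of a type and less RNA per cell cannot be told apart.

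Collagen transcripts took 0.285%, 0.117% and 0.137% of all counts in control 1, control 2 and mutant 1, and 0.0292% in mutant 2, where the Wilson 95% interval of 0.0288% to 0.0297% covers counting error only. Mutant 1 thus lay between the controls, and mutant 2 lay below all the other libraries. The difference sat mainly in the fibrillar class, which took 0.213%, 0.0672%, 0.0851% and 0.00146% in the same order. The type 4 class took 0.0279%, 0.0170%, 0.0225% and 0.0116%, and the other types took 0.0441%, 0.0328%, 0.0292% and 0.0162%. Of all collagen counts, fibrillar chains made up 74.7%, 57.5% and 62.2% in the first 3 libraries but 5% in mutant 2 (Wilson 95% interval 4.65% to 5.37%).

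**Figure D1:**
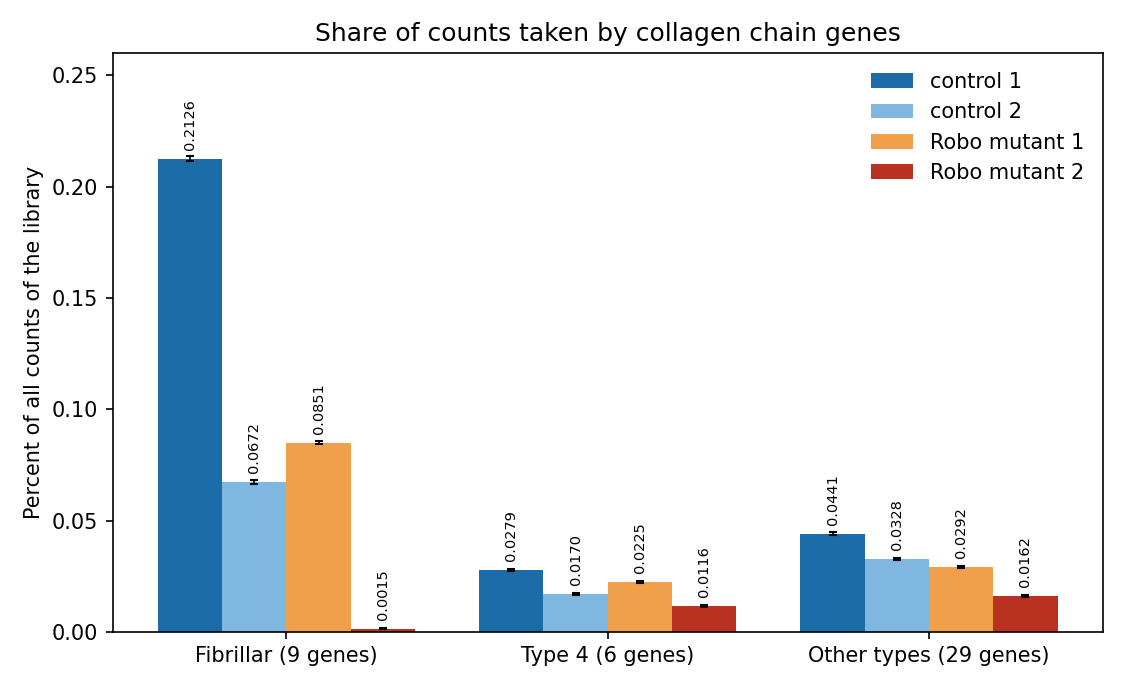
Percent of all counts of each library (vertical axis) taken by fibrillar, type 4 and other collagen chain genes. Bars are single libraries with Wilson 95% intervals of counting error, and the fibrillar bar of mutant 2 stands at 0.00146% against 0.0672% or more in the other libraries.

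Of the 44 genes, 36 had at least 10 counts in at least 2 libraries and were tested with edgeR's quasi-likelihood method among 16517 genes. The 8 that were not tested had at most 74 counts in any library. In the comparison of both mutant with both control libraries, 29 of the 36 tested chains had a log2 change below 0, against 51.3% of all genes tested, and 7 one above 0. Their median log2 change was -0.97, against -0.013 over all genes tested. Chains with at least 10 counts only in the controls had to come out lower, and there were 4 of these. Among the other 32, 25 were lower. Over all 44 genes the mean CPM was lower in the mutants for 35, higher for 8, and 0 in every library for 1. By class the median was -1.73 for the fibrillar, -0.79 for the type 4 and -0.40 for the other chains.

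No single chain passed the edgeR test, and the counts by direction and the class medians were given no test. With edgeR, 0 of 36 chains had an adjusted p under 0.05 (0% of all genes tested), and the smallest adjusted p was 0.680. At an unadjusted p under 0.05 there were 4 chains, all lower, where 4.21% of all genes tested were called lower and 1.99% higher by that rule. These 4 were Col4a6, Col4a4, Col7a1 and Col11a1, the tested chains without a count in either mutant. Of all genes tested, 304 (1.84%) had no count in either mutant, and each of them had such a p. DESeq2 called 2 chains, Col4a6 and Col7a1, both lower, where it called 0.914% of all genes and 0.605% as lower. Both passed the filter through the controls alone, so neither could have come out higher. In 13 chains both mutants were lower than both controls (20.4% of all genes tested) and in 1, Col28a1, higher than both (16.1% of all genes tested).

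Leaving out libraries moved the count and the median. Without mutant 2, 26 of 35 chains were lower with a median of -0.63 (52.3% of all genes lower), and without mutant 1, 28 of 35 with a median of -2.95 (52.7%). Without control 1, the library with the highest collagen share, 19 of 31 were lower with a median of -0.24 (50.5%). Without control 2, 24 of 31 were lower with a median of -1.25 (49.6% of all genes lower). In a fit with 1 mutant library, a chain at 0 there could pass the filter only through both controls. Such a chain had to come out lower. Of the 36 tested chains, 10 were at 0 in mutant 1 and 13 in mutant 2. This limits the counts lower and the medians without mutant 2 and without mutant 1. It also limits the counts by p of those fits, which are therefore not separate evidence of lower levels. The count with an unadjusted p under 0.05 was 11 without mutant 2 (17.4% of all genes), 18 without mutant 1 (19%), 0 without control 1 (1.2%) and 0 without control 2 (1.16%), with adjusted p under 0.05 for 0 chains in each of these fits.

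The mutant libraries were therefore also set against the control mean 1 at a time. In mutant 1, 16 of the 36 tested chains lay within 2-fold of the control mean (77.0% of all genes tested), 5 lay 2- to 10-fold below it, 5 over 2-fold above it and 10 at 0. In mutant 2, 13 lay within 2-fold (76.6% of all genes tested), 4 lay 2- to 10-fold below, 5 over 10-fold below, 1 over 2-fold above and 13 at 0. Chains at 0 or over 10-fold below the control mean numbered 10 in mutant 1 (8.05% of all genes tested) and 18 in mutant 2 (7.39% of all genes tested). Of the chains, 6 were at 0 in mutant 1 only, 9 in mutant 2 only and 4 in both. Over all genes tested the numbers were 866, 749 and 304, so a 0 in 1 mutant only was the commoner case among all genes as well.

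**Figure D2:**
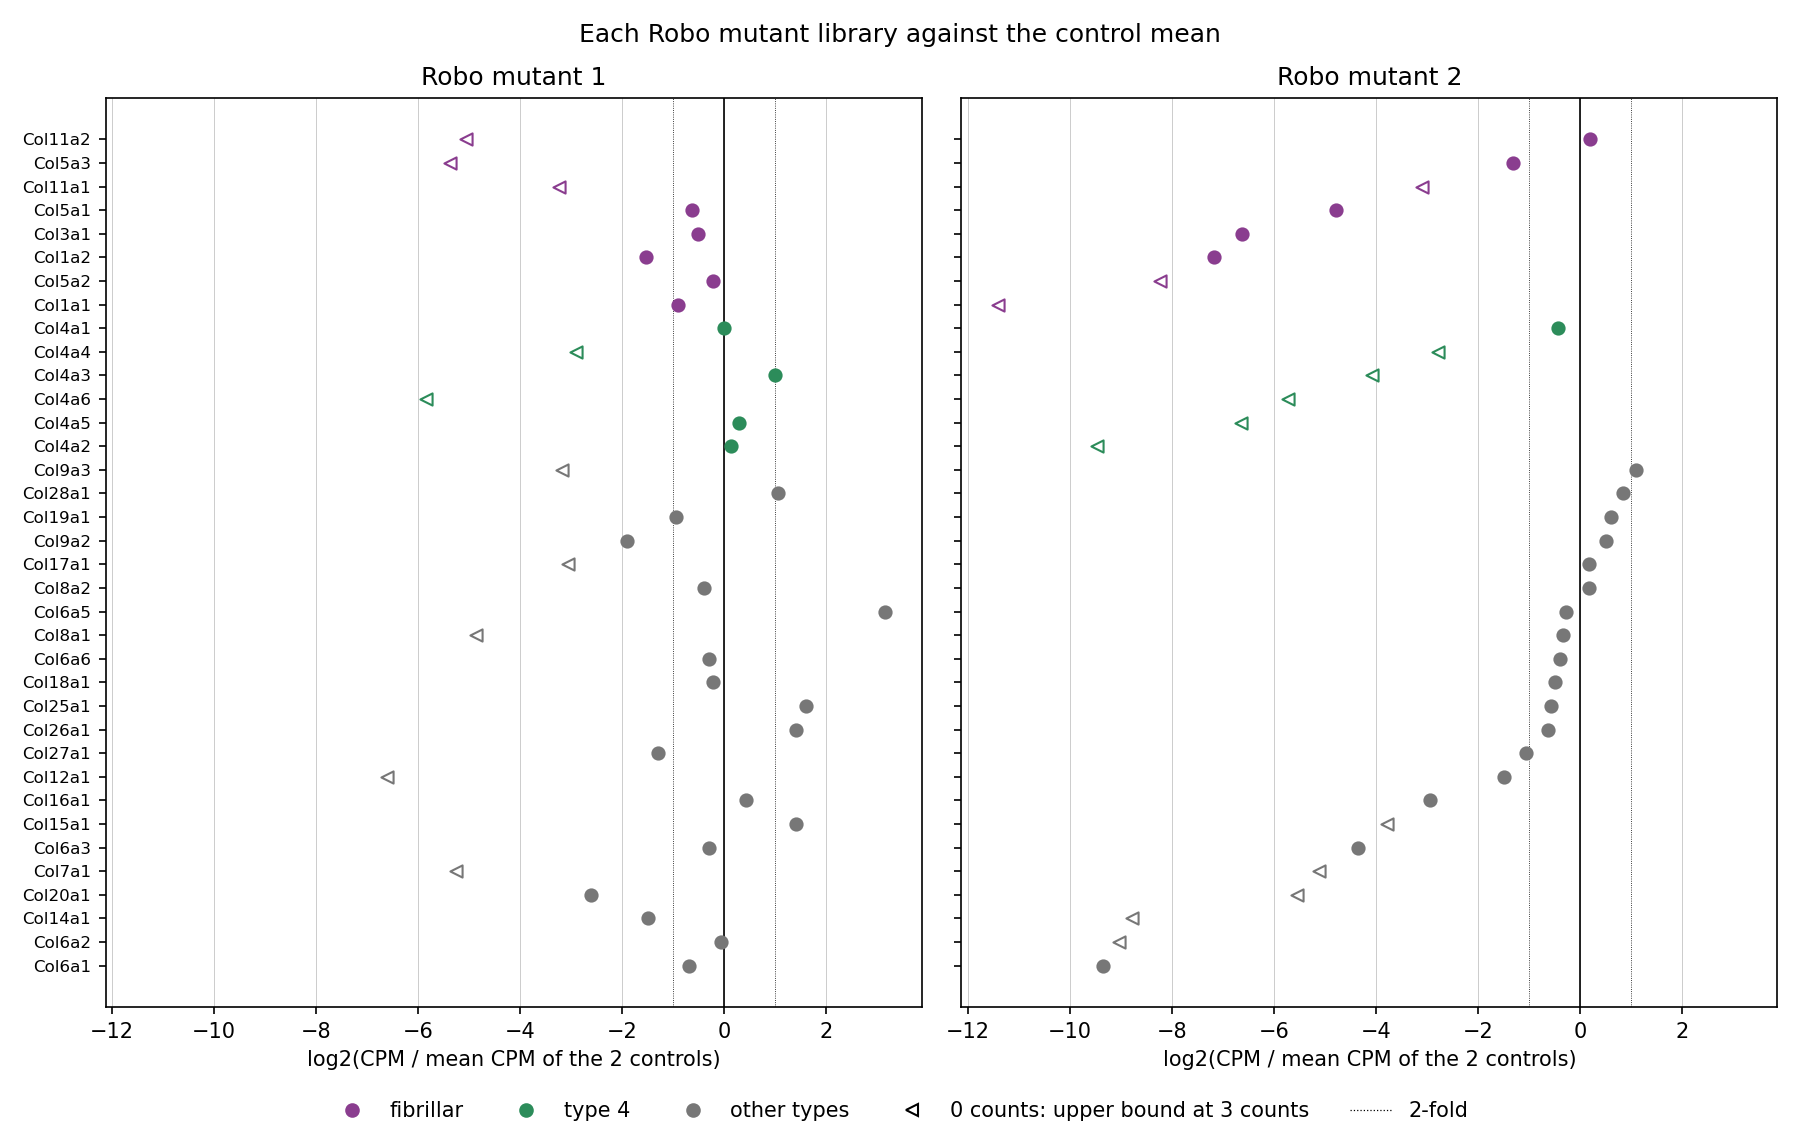
Log2 ratio of the CPM in mutant 1 (left) and mutant 2 (right) to the mean CPM of the 2 controls, for the 36 tested chains, coloured by class and ordered within each class by the value in mutant 2. Open triangles mark 0 counts and are upper bounds at 3 counts; 4 of 8 fibrillar chains lie within 2-fold in mutant 1 and 1 of 8 in mutant 2.

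Sequence just upstream of the gene start is shown for the most abundant chain of the fibrillar class and of the other types, which lay far apart in mutant 2, and for Col4a5 and Col4a6, neighbours of which 1 had counts in mutant 1. They come from RefSeq promoter windows (GRCm38.p6), which matched 35 of the 44 genes, without any annotated untranslated part, and run 5′ to 3′ on the gene's strand. Capitals mark the CCAAT box, the TATA box motif TATAAA and the GC box motif GGGCGG, searched as letters on both strands of the 250 bases upstream, and the motifs do not overlap one another here.
Col3a1, chr1:45311288-45311537, plus strand: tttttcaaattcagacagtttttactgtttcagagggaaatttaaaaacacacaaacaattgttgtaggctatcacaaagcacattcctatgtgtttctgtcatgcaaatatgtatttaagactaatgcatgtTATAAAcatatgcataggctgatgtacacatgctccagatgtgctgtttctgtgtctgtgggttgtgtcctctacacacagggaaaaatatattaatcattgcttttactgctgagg
Col6a6, chr9:105828161-105828335, minus strand: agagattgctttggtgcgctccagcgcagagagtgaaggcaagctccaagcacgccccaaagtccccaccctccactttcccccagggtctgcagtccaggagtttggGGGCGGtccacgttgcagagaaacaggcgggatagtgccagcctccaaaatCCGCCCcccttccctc
Col4a6, chrX:141474077-141474326, minus strand: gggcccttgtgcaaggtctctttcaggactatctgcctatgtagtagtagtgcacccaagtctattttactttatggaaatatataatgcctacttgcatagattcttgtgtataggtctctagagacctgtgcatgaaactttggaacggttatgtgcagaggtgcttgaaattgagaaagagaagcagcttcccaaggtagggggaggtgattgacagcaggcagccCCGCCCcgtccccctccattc
Col4a5, chrX:141475169-141475384, plus strand: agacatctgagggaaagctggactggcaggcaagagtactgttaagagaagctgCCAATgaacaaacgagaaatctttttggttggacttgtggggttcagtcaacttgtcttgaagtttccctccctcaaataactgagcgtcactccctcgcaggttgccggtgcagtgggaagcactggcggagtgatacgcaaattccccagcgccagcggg
The Col3a1 window held 1 TATAAA, 117 bases upstream, and no CCAAT or GGGCGG, with 35.2% G and C. The Col6a6 window held 2 GGGCGG matches with 62.4% G and C, and the Col4a6 window held 1, 21 bases upstream. The Col4a5 window held 1 CCAAT and 1 GGGCGG, the latter in the part left out here. Of all 32851 RefSeq windows of the same length, 33.8% held CCAAT, 12.4% TATAAA and 32.7% GGGCGG. The 35 matched collagen genes had 38 windows. Of these genes, 13, 5 and 21 held the motifs in any of their windows, a count by gene and not by window. A match is a run of letters and not a measured binding site.

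Among the fibrillar chains, Col3a1 was the most abundant collagen transcript per length (ENSMUSG00000026043, chromosome 1, 45311538 to 45349706, plus strand, GRCm38). It encodes the chain of type 3 collagen, which is built from copies of this chain alone and is plentiful in soft tissue. It had 64060 and 17346 counts in control 1 and control 2, 30760 in mutant 1 and 406 in mutant 2, or 1338, 426, 615 and 8.93 CPM. Mutant 1 lay between the controls and mutant 2 lay 98.8-fold below the control mean. The control mean was 882 ± 645 CPM and the mutant mean 312 ± 429 CPM (SD, n = 2 each), with a log2 change of -1.5 (standard error 1.76, unadjusted p 0.437 in edgeR).

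The chains of type 1 collagen, the commonest fibril former, followed the same order of libraries in part. Col1a1 (chromosome 11, 94936224 to 94953042, plus strand, GRCm38) had levels of 288 and 68.3 CPM in the controls, 95 CPM in mutant 1 and 0 in mutant 2. Taking 3 counts in place of 0, mutant 2 was at least 2698-fold below the control mean. This and the other bounds at 3 counts cover counting error only: reads of amplified low-input cDNA are not independent molecules, and 0 counts do not bound the transcript level in the cells. Col1a2 (chromosome 6, 4504814 to 4541544, plus strand, GRCm38), its partner in the type 1 molecule, had 424 and 122 CPM in the controls, 94.5 CPM in mutant 1 and 1.89 CPM in mutant 2. Its 2 mutant libraries therefore lay below both controls, whereas those of Col1a1 did not. The log2 changes were -1.91 for Col1a1 and -2.50 for Col1a2, with standard errors of 2.29 and 1.71 and unadjusted p of 0.448 and 0.211 in edgeR. Without mutant 2 the log2 change of Col1a2 was -1.53, and without control 1 that of Col1a1 was -0.52.

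Per kilobase of the longest coding transcript, the ratio of Col1a1 to Col1a2 was 0.612 and 0.507 in the controls and 0.907 in mutant 1. In mutant 2 Col1a1 took 0 of 86 type 1 counts, which allows a share of up to 4.28% (Wilson), while it took 40.4%, 36% and 50.1% of the type 1 counts in control 1, control 2 and mutant 1. Averaged over all libraries, Col3a1 stood at 107, Col1a2 at 30.0 and Col1a1 at 19 CPM per kilobase. With merged exon length instead, a choice made after seeing the data, the values were 60.8, 12.9 and 17.2, so the order of the type 1 chains depends on the length used.

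Type 5 collagen starts fibrils and limits their diameter. Col5a1 stood at 54.0, 14.1, 22 and 1.23 CPM in the same order of libraries, and Col5a2 at 32.3, 7.39, 17 and 0 CPM. For both, mutant 1 lay between the controls and mutant 2 was the lowest library, as for Col3a1 and Col1a1. The third chain, Col5a3, stood at 2.42, 2.58, 0 and 1.01 CPM, with mutant 1 as its lowest library. The log2 changes were -1.55 for Col5a1, -1.22 for Col5a2 and -2.30 for Col5a3 (unadjusted p in edgeR 0.322, 0.600 and 0.324).

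The type 11 chains, minor partners of cartilage fibrils, were low, at no more than 2.74 CPM in any library. Col11a2 had 131 and 52 counts in the controls, 0 in mutant 1 and 104 in mutant 2. Col11a1 had 26 and 24 counts in the controls and 0 in both mutants, at least 8.99-fold lower, with an unadjusted p of 0.014 in edgeR. Its adjusted p was 0.680 in edgeR and 0.511 in DESeq2. Col2a1, the main cartilage chain, was at 0 in all libraries.

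**Figure D3:**
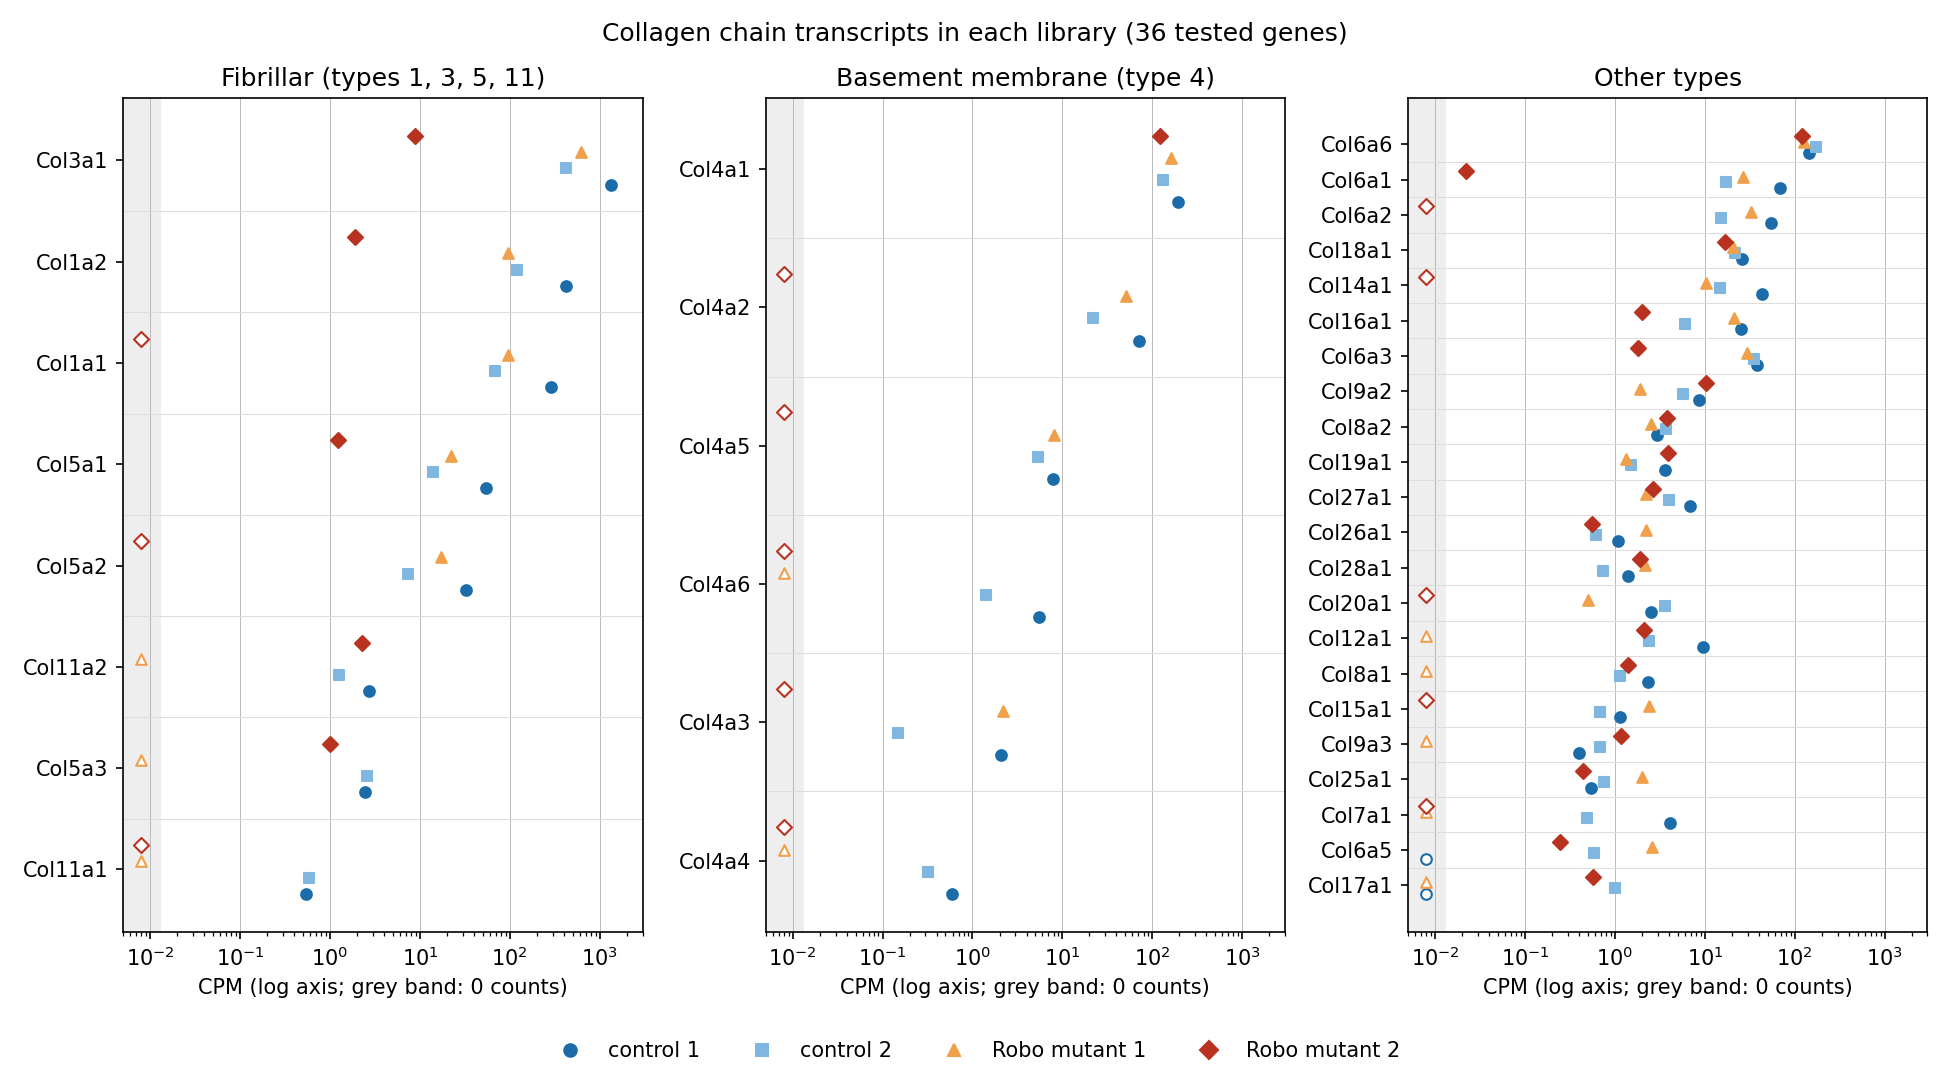
CPM (log axis) of the 36 tested collagen chains in each library, in panels for the fibrillar, type 4 and other chains, ordered from the highest level per kilobase at the top. Open symbols in the grey band are 0 counts. Col4a1, Col6a6, Col18a1 and, at a low level, Col8a2 have all 4 libraries close together, while mutant 2 lies far left for Col3a1, Col1a1 and Col1a2.

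Type 4 collagen is made as fixed combinations of α chains, encoded by genes that lie head to head in pairs. Col4a1 and Col4a2, the pair found in nearly all basement membranes, start on opposite strands of chromosome 8 (Col4a1, 11198423 to 11312826, minus strand; Col4a2, 11312805 to 11449287, plus strand; GRCm38) and share 22 bases of exon. Col4a1 had 9248 and 5428 counts in the controls and 8075 and 5532 in the mutants, or 193, 133, 162 and 122 CPM. The groups overlapped, and the log2 change was -0.20 (standard error 0.25, unadjusted p 0.457 in edgeR). It was the most even of the type 4 chains: mutant 1 lay 1.01-fold and mutant 2 1.34-fold below the control mean.

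Col4a2 did not follow its neighbour. It had 3438 and 889 counts in the controls, 2550 in mutant 1 and 0 in mutant 2, or 71.8, 21.8, 51.0 and 0 CPM, which puts mutant 2 at least 710-fold below the control mean. Of the counts of the pair, Col4a1 took 72.9% and 85.9% in the controls, 76.0% in mutant 1 and 100% in mutant 2 (Wilson 95% interval from 99.9% in the last). Per kilobase, the ratio of Col4a1 to Col4a2 was 2.62, 5.95 and 3.09 in control 1, control 2 and mutant 1 and at least 1798 in mutant 2. The log2 change of Col4a2 was -0.88 with a standard error of 2.15, and 0.12 without mutant 2.

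Col4a5 and Col4a6, which pair in the basement membranes of smooth muscle and several epithelia, start 1309 bases apart on the X chromosome (Col4a6, 141165403 to 141474076, minus strand; Col4a5, 141475385 to 141689234, plus strand; GRCm38). Col4a5 had 375 and 216 counts in the controls, 402 in mutant 1 and 0 in mutant 2. Col4a6 had 264 and 58 counts in the controls and 0 in both mutants, at least 55.1-fold lower. Mutant 1 thus held slightly more Col4a5 than either control, at 8.04 against 7.83 and 5.30 CPM, but no Col4a6. Col4a6 had the smallest p of all tested collagen chains, 0.00624 unadjusted and 0.680 adjusted in edgeR, and an adjusted p of 0.000654 in DESeq2. It passed the filter through the controls alone and so had to come out lower. Each of the 304 genes tested without a count in either mutant had an unadjusted edgeR p under 0.05. The log2 change of Col4a5 was -0.71, and 0.29 without mutant 2.

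Col4a3 and Col4a4, which join Col4a5 in the filtration barrier of the kidney, start 72 bases apart on chromosome 1 and were low. Col4a3 had 99, 6, 110 and 0 counts in control 1, control 2, mutant 1 and mutant 2, so the controls differed 14-fold between themselves in CPM. Its exons overlap those of C430014B12Rik on the other strand over 563 bases, and reads of the pair cannot be told apart in libraries that do not mark strand. Col4a4 had 28 and 13 counts in the controls and 0 in both mutants, at least 7.17-fold lower (unadjusted p 0.0186 and adjusted p 0.680 in edgeR). In mutant 2, therefore, 5 of 6 type 4 chains were at 0 (6.38% of all tested genes were), and Col4a1 was the exception.

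Type 6 collagen forms beaded filaments close to cells, from a Col6a1 and a Col6a2 chain joined by a long α3-like chain, Col6a3 or one of Col6a4, Col6a5 and Col6a6. Col6a1 had 3319, 696, 1330 and 1 counts and Col6a2 2577, 614, 1642 and 0 counts in control 1, control 2, mutant 1 and mutant 2. Col6a3 stood at 37.9, 35.0, 29.7 and 1.78 CPM, with the controls close together and mutant 2 20.5-fold below their mean. These 3 chains were thus present in mutant 1 and at or near 0, or far below the controls, in mutant 2. Their log2 changes were -1.70, -1.07 and -1.21 (unadjusted p in edgeR 0.452, 0.641 and 0.367).

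Col6a6 was different and was the most abundant of the other types per kilobase (ENSMUSG00000043719, chromosome 9, 105687809 to 105828160, minus strand, GRCm38). It had 6888 and 7069 counts in the controls and 6399 and 5484 in the mutants, or 144, 173, 128 and 121 CPM. Both mutant libraries lay below both controls by a small margin, the mean being 1.28-fold lower (log2 change -0.35, standard error 0.15). By edgeR the unadjusted p was 0.0688 and the adjusted p 0.861, the smallest among chains with counts in a mutant library. Per kilobase, Col6a6 exceeded Col6a3 by 4.37, 5.70 and 4.96 times in control 1, control 2 and mutant 1 and by 77.9 times in mutant 2. Col6a5 had 0, 24, 130 and 11 counts in the same order, and Col6a4 had 2, 41, 0 and 0 and was not tested.

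The multiplexins, types 15 and 18, carry glycan chains and sit beside basement membranes; the end of type 18 can be cut off as endostatin. Col18a1 (chromosome 10, 77052178 to 77166548, minus strand, GRCm38) had levels of 25.8 and 21.8 CPM in the controls and 20.4 and 16.9 CPM in the mutants. Both mutant libraries were a little below both controls, at a mean 1.27-fold lower (log2 change -0.35, standard error 0.23, unadjusted p 0.195 in edgeR). Col15a1 had 54, 28, 120 and 0 counts in control 1, control 2, mutant 1 and mutant 2, with mutant 1 as its highest library. Col4a1, Col6a6 and Col18a1, singled out after their values were seen, together took 12.7%, 29.4% and 22.8% of collagen counts in the first 3 libraries and 84.3% in mutant 2. Their sum was 363, 328, 310 and 259 CPM, whereas all other collagen chains summed to 2504, 788, 1047 and 48.1 CPM.

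Fibril-associated collagens bind to the surface of larger fibrils. Col14a1, often found with type 1 fibrils, stood at 43.2, 14.8, 10.2 and 0 CPM in the same order of libraries, so that both mutants lay below both controls (log2 change -2.50, unadjusted p 0.280 in edgeR). Col12a1, of the same family, had 451 and 97 counts in the controls, 0 in mutant 1 and 95 in mutant 2. The pair therefore had opposite mutant libraries at 0. Col16a1 stood at 25.2, 6.06, 20.9 and 2.02 CPM and kept the order of Col3a1, with control 1 highest and mutant 2 lowest.

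The low-level members of this family differed from that order. Col20a1 had 122 and 147 counts in the controls, 25 in mutant 1 and 0 in mutant 2, a mean 12.3-fold lower in the mutants (log2 change -3.60, unadjusted p 0.135 in edgeR). It overlaps the transcript BX649560.1 on the same strand by 79 exonic bases. Col9a2, a chain of the cartilage-associated type 9, stood at 8.65, 5.72, 1.92 and 10.3 CPM, and Col19a1 at 3.61, 1.5, 1.32 and 3.91 CPM in the same order of libraries. For both, mutant 2 was the highest library and mutant 1 the lowest. Col9a3 had 19, 28, 0 and 53 counts. Col9a1 and Col22a1 had at most 9 and 3 counts in a library.

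Network-forming type 8 collagen is known from the cornea and from blood vessels. Col8a2 stood at 2.97 and 3.71 CPM in the controls and 2.52 and 3.78 CPM in the mutants, so the groups overlapped within a narrow range. Its partner Col8a1 had 113, 46, 0 and 63 counts in control 1, control 2, mutant 1 and mutant 2. Col10a1, a chain of hypertrophic cartilage, had 2, 1, 0 and 0 counts. Col27a1, a fibrillar-like chain, stood at 6.85 and 4.02 CPM in the controls and at 2.22 and 2.62 CPM in the mutants. Both its mutant libraries were below both controls, and the log2 change was -1.17 (standard error 0.56, unadjusted p 0.0968 and adjusted p 0.897 in edgeR). The other fibrillar-like gene, Col24a1, had 9 counts in control 2 and 0 elsewhere.

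Col28a1, a chain known from peripheral nerve, was the only tested chain with both mutant libraries above both controls. It had 66 and 30 counts in the controls and 109 and 86 in the mutants, or 1.38, 0.736, 2.18 and 1.89 CPM, with a log2 change of 0.94 (standard error 0.79, unadjusted p 0.294 in edgeR). The Schwann cell markers summed to 119 and 170 CPM in the controls and 137 and 162 CPM in the mutants, nearly all of it Mbp. The other 7 summed to 8.5 and 7.53 CPM in the controls and 3.56 and 13.3 CPM in the mutants, and their part in the Col28a1 value was not tested. Col26a1 had 52, 25, 112 and 25 counts in control 1, control 2, mutant 1 and mutant 2, with mutant 1 highest.

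Transmembrane collagens were scarce. Col25a1, known from neurons, had 26 and 31 counts in the controls, 99 in mutant 1 and 20 in mutant 2. Col17a1, a component of the junctions that hold epithelia to their basement membrane, had 0, 41, 0 and 26 counts in control 1, control 2, mutant 1 and mutant 2. Col13a1 had 74 counts in mutant 1 and at most 5 elsewhere, and Col23a1 had 11 counts in control 2 and 0 elsewhere; neither was tested. Col7a1, which forms the anchoring fibrils of skin, had 196 and 20 counts in the controls and 0 in both mutants, at least 36.4-fold lower. Its adjusted p was 0.680 in edgeR and 0.0150 in DESeq2, and most of that bound comes from control 1, which was 8.34-fold above control 2. Like Col4a6, Col7a1 passed the filter through the controls alone.

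Zeros were common among these chains at levels that other libraries detected well. Of 144 values (36 tested chains in 4 libraries), 25 were 0 and 2 lay between 1 and 9. By library, 2, 0, 10 and 13 tested chains were at 0 in control 1, control 2, mutant 1 and mutant 2, where 1.86%, 0.999%, 7.08% and 6.38% of all tested genes were.

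Transcripts of stromal cells, taken from lists that hold no collagen, were also lowest in mutant 2 as summed lists. The 15 fibroblast and stellate cell markers summed to 431, 134, 305 and 33.4 CPM in the same order of libraries, and 1, 0, 1 and 6 of them were at 0. Postn, the most abundant, stood at 145, 42.7, 142 and 9.54 CPM, and Pdgfra, a defining receptor gene named after its values were seen, had 479, 155, 387 and 0 counts. Mutant 2 was the lowest library for 12 of 14 tested members, where it was for 31.0% of all genes tested. It was the highest for Fbln2, at 154, 226, 0 and 419 counts, and for Pi16, at 27, 13, 48 and 73. The 10 pericyte and smooth muscle markers summed to 319, 80.3, 310 and 2.99 CPM, with 1, 0, 2 and 6 at 0. Acta2, the most abundant, had 6993, 1121, 8154 and 1 counts, and Pdgfrb, a defining receptor gene named after its values were seen, 2235, 398, 1749 and 0. Cspg4 differed from this order, with 0, 63, 0 and 79 counts. The part of these cells in the collagen values was not tested.

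Endothelial markers were low throughout, with the 11 genes summing to 13.1, 22.6, 8.18 and 6.62 CPM in the same order, and 5, 0, 6 and 6 of them at 0. Without Esam, the most abundant, the sums were 9.94, 17.2, 5.32 and 0.990 CPM. Duct markers summed to 478, 565, 489 and 523 CPM, mostly Krt7, and without it to 67.7, 133, 85.5 and 136 CPM. Immune markers summed to 53.2, 26.6, 64.2 and 70.6 CPM. Markers of islet alpha cells, mostly Gcg, summed to 23587, 11692, 19108 and 23871 CPM, and those of delta cells to 1061, 979, 2504 and 1282 CPM. Acinar markers, at their highest in mutant 2, ran opposite to the fibrillar chains in that library, but not between the controls, where control 1 held both more acinar and more fibrillar transcripts than control 2. Their part was not tested either.

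**Figure D4:**
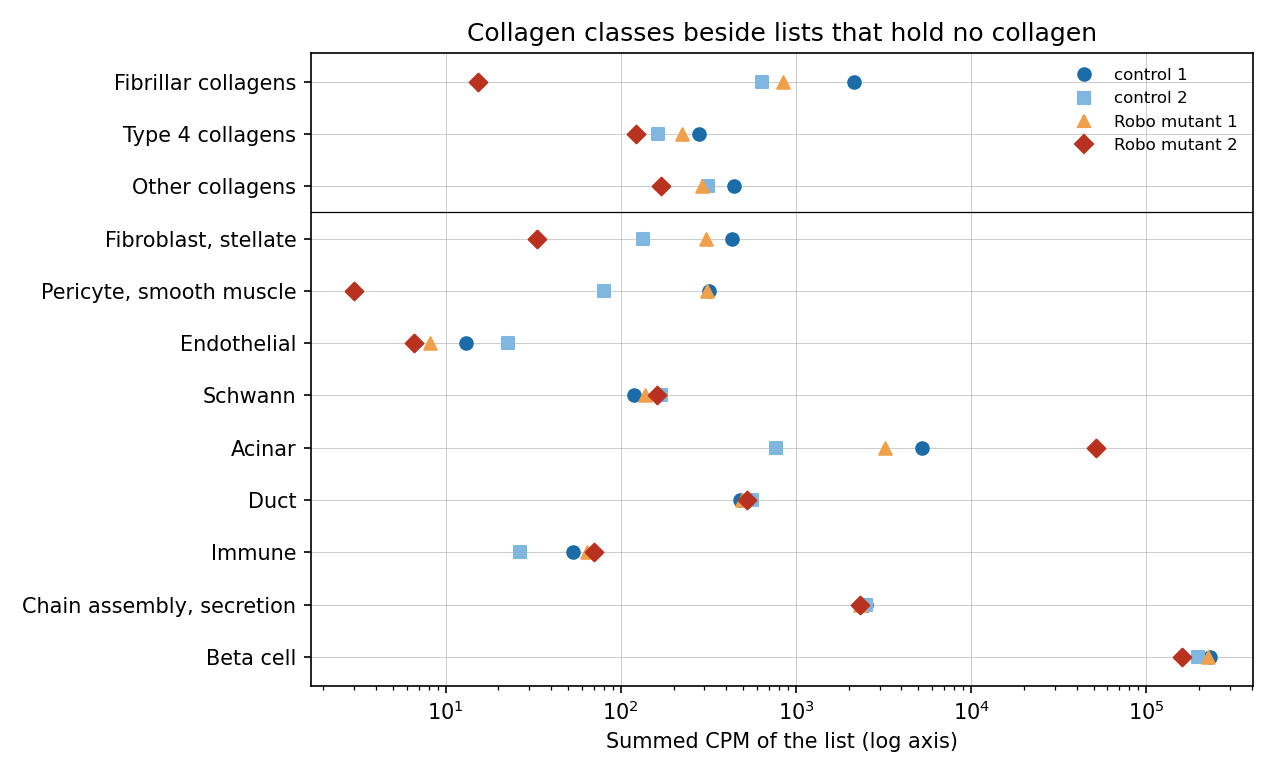
Summed CPM (log axis) of the 3 collagen classes above the line and, below it, of marker lists and the chain assembly list, none of which holds a collagen, in each of the 4 libraries. The fibroblast and pericyte lists and the fibrillar chains each have their lowest library in mutant 2, the lists at 33.4 and 2.99 CPM, while the chain assembly list stays between 2332 and 2520 CPM in all libraries.

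The machinery that folds, modifies and exports collagen chains is used by many secretory cells for other proteins as well. All 23 listed genes found in the table were tested, of which 8 were higher and 15 lower with a median log2 change of -0.092, and 0 had an adjusted p under 0.05. At an unadjusted p under 0.05, 0 were called, where 6.21% of all genes tested were. Summed over the list, the level was almost even, at 2520, 2500, 2332 and 2334 CPM in the usual order of libraries. P4hb, the disulfide isomerase that is also a subunit of the prolyl hydroxylase, was its most abundant member, at 1316, 1400, 1304 and 1283 CPM. Sec23a and Sec24d, coat proteins of the vesicles that carry cargo out of the endoplasmic reticulum, had the smallest p of the list, with log2 changes of -0.41 and -0.38. Both their mutant libraries lay below both controls. The collagen chaperone gene Serpinh1, named after its values were seen, had 884, 567, 740 and 195 counts.

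Genes that trim procollagen and cross-link fibrils lay on both sides, 4 of 11 tested members higher and 7 lower, with a median of -0.38 and 0 past the test. For 8 of these 11 the lowest library was mutant 2 alone, as it was for 31.0% of all genes tested. These 8 include Lox and Loxl1, which the list shares with the fibroblast markers. Among all 16 listed genes, 4, 4, 5 and 7 were at 0 in the usual order of libraries. Pxdn, which encodes the peroxidase that cross-links type 4 collagen, stood at 36.5, 23.2, 19.9 and 16.9 CPM, with both mutants below both controls (log2 change -0.70, unadjusted p 0.069 in edgeR). Pcolce2, an enhancer of procollagen cleavage, stood at 1.3, 4.27, 6.14 and 6.11 CPM, with both mutants above both controls. Bmp1, the main procollagen C-proteinase gene and the most abundant of the list, was even at 184, 182, 182 and 186 CPM. The 15 listed genes left without Bmp1 were not even, and their sums were 458, 172, 291 and 94.3 CPM. Mutant 1 thus lay between the controls for this sum, and mutant 2 was the lowest library.

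Collagen receptors were divided, with 5 of 11 tested members higher and 6 lower and a median of -0.026. Mutant 2 alone was the lowest library for 5 of the 11, where it was for 31.0% of all genes tested. These included Ddr2, at 368, 98, 264 and 0 counts in control 1, control 2, mutant 1 and mutant 2. Mrc2, at 142, 97, 151 and 0 counts, and Itga11, at 99, 34, 237 and 1, were also among them. Lair1 differed, with 44, 17, 0 and 92 counts. Adgrg6, an adhesion receptor that binds type 4 collagen, had 50 and 31 counts in the controls and 0 in both mutants (unadjusted p 0.010 and adjusted p 0.680 in edgeR). Cd44, whose protein binds hyaluronan and also collagen, stood at 39.7, 38.1, 66.5 and 43.0 CPM. Adgrg1, a receptor for type 3 collagen, was the most abundant, at 402, 404, 423 and 361 CPM.

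Proteoglycans and glycoproteins that coat collagen fibrils had 10 of 11 tested members lower, with a median of -1.33, and 0 passed the test. Dcn, the decorin gene, stood at 94.7, 29.3, 48.0 and 0.484 CPM, the same order of libraries as Col3a1. Thbs2 had 2364, 235, 169 and 0 counts and Aspn 572, 152, 116 and 0, with both mutants below both controls. Of the 13 listed genes, 3, 2, 2 and 10 were at 0 in control 1, control 2, mutant 1 and mutant 2, where Kera and Comp, at 0 in every library, count in each. Of all genes tested 6.38% were at 0 in mutant 2. That library was the lowest for 10 of the 11 listed genes tested, and for 31.0% of all genes tested. This list shares Dcn and Lum with the fibroblast markers.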

How the data were processed

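RNA was measured in 4 libraries of sorted mCherry-positive β cells, 2 per genotype. Per the labels' protocols, islets were purified on a density gradient, cDNA was made with SMART-Seq v4 from low-input RNA, and Nextera XT made libraries that do not mark the strand. Per the submitters' processing notes, reads were handled with STAR 2.5.3a and bcl2fastq 2.20.0.422, then RSEM 1.3.0, edgeR 3.16.5 being named too, on GRCm38. What edgeR did there, and which annotation was used, is not given in the sources here. The values deposited by the authors are RSEM estimated counts in whole numbers. The table is called normalized, yet its columns sum to different totals, so an earlier rescaling is possible, and counting intervals are then approximate.

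Values were rounded, a gene needed 10 counts or more in 2 libraries or more (16517 passed), and edgeR 4.0.16 in R 4.3.3 fitted TMM factors and two-sided quasi-likelihood tests, with Benjamini-Hochberg adjustment over all genes tested and a threshold of 0.05. Alternatives were DESeq2 1.42.0, limma 3.58.1 on log2(CPM + 1), other scalings and filters, and each library left out. Genes matched GENCODE M21 (51633 of 51912 identifiers), which gave positions, overlaps and transcript lengths. Standard errors are the log2 change over the root of the F statistic. A fold against 0 counts is a bound at 3 counts per library, for counting error only. By rule, the text names Robo1, Robo2, the collagen chains, the 2 smallest p of each pathway list and the most abundant gene of a cell type list. P4hb, Bmp1, Adgrg1, Ddr2, Mrc2, Itga11, Lair1, Dcn, Serpinh1, Pdgfra, Pdgfrb, Fbln2, Pi16, Cspg4, Kera and Comp fall outside it. They were chosen after their values were seen, as was giving counts by library for low chains. The members and lists were chosen with earlier results of these data known, so lists are described by counts and medians without a test.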

Additional observations from a re-analysis of the deposited data

How the results depend on the processing

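With edgeR 0 genes passed under every scaling, filter and limma alternative, and 0 to 1 when a library was left out; DESeq2 called 151, and 1025 had an unadjusted p under 0.05 in edgeR. When each library was left out, the lone one being assumed to vary like the others, the median log2 change ranged over -2.95 to -0.24 for all tested chains, -6.90 to -0.45 for fibrillar, -10.28 to 0.089 for type 4 and -0.59 to -0.23 for other chains. The lowest values were all without mutant 1. Where a chain had 0 counts in every library of 1 genotype in a fit, the counts do not fix the size of its log2 change. This holds for the type 4 value of -10.28, which is that of Col4a6, and for the far ends of several ranges below. For Col4a2, with -14.03 as its far end, the bound at 3 counts put mutant 2 at a log2 ratio of -9.47 to the control mean. Without a filter the median of the other chains was -1.07 over 29 genes. Col4a6 and Col7a1 were called by DESeq2 alone. Of 377 values of single chains under alternatives, 345 kept direction and call and 30, in 17 chains, changed sign. Over the left-out libraries, Col5a2 from -12.80 to 0.20, Col11a2 from -9.54 to 0.19, Col4a1 from -0.45 to 0.089, Col4a2 from -14.03 to 0.23, Col4a3 from -0.91 to 0.98, Col4a5 from -11.20 to 0.29, Col6a2 from -13.59 to 0.12, Col6a5 from -0.26 to 9.09; Col8a2 from -0.40 to 0.18, Col9a2 from -1.90 to 0.52, Col9a3 from -7.65 to 1.10, Col15a1 from -8.35 to 1.40, Col16a1 from -2.95 to 0.92, Col17a1 from -1.81 to 0.20, Col19a1 from -0.95 to 0.81, Col25a1 from -0.56 to 1.60, Col26a1 from -0.63 to 1.39. With equal totals the log2 change was 0.0048 for Col4a3, -0.0062 for Col9a3 and -0.030 for Col19a1, with upper-quartile factors 0.027 for Col4a3, and with limma -0.061 for Col9a3, -0.039 for Col15a1 and -0.0074 for Col19a1. No paired analysis was possible because the labels give no replicate numbers that the genotypes share.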
